A study of Mus musculus with 6 samples.

Results

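Tanycytes and ependymal cells of the mouse hypothalamus were compared gene by gene, within each mouse, over the whole transcriptome. The members were the cells that the authors' deposited cell table labels Tany or Epend, and the raw UMI counts (unique molecular identifiers, 1 for each captured transcript) of each label were summed per mouse. This gave 4 tanycyte sums and 4 ependymal sums from 6020 of the 20151 cells of the labelled mice, with 4490 tanycytes and 1530 ependymal cells. All mice were male ob/ob mice, which lack functional leptin, were 11 weeks old and had ad libitum access to chow. Each had received a single icv injection of 3 µg of FGF1 R50E, a mutant form of fibroblast growth factor 1, and was euthanized 5 days later. Each library came from 1 mouse. No vehicle-injected or lean mouse entered the comparison, so every value below describes obese, R50E-injected animals and nothing here measures what the injection did. Cells of 2 further labelled mice were not analysed here.

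Both cell types line the third ventricle. Ependymal cells carry tufts of motile cilia, whose axoneme is driven by dynein arms, paced by radial spokes and a central pair, and built by intraflagellar transport under the transcription factors Foxj1 and the RFX family. Tanycytes line the ventricle floor, send a long basal process to the median eminence and arcuate nucleus, and are known for the transcription factor Rax, for thyroid hormone activation, for control of what passes between blood and cerebrospinal fluid, and for progenitor-like properties. Because the labels were themselves assigned from expression, the test below says how large each difference was against the spread between mice, and is no independent evidence that the 2 types exist or that the labels are right.

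The tanycyte sums held between 881597 and 2034432 UMIs from 693 to 1604 cells per mouse, and the ependymal sums between 346326 and 831384 UMIs from 245 to 465 cells. The median depth per cell overlapped between the types, at 932 to 1208 UMIs in tanycytes and 974.5 to 1266 in ependymal cells. The median mitochondrial share was 11.6% to 13.1% in tanycytes and 10.9% to 11.2% in ependymal cells, so that it was higher in tanycytes in 4 of 4 mice. The ependymal cells of mouse 30 stood apart, with a median silhouette score (how well a cell sits in its own cluster) of 0.124 against 0.340 to 0.372 in the other 3 mice. Results that rest on mouse 30 are therefore given with and without it. Among the 6020 cells, 15 barcodes occurred in 2 or more libraries.

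The labels were checked against marker lists. Over all tested genes, 6.73% were called higher in tanycytes and 13.1% in ependymal cells, by the call defined below. Of 14 tanycyte markers, 12 had enough UMIs to be tested, and 10 of these were higher in tanycytes while 2, Scn7a and Ppp1r1b, were higher in ependymal cells. The summed level of the tanycyte markers was 2530 to 3421 CPM (counts per 1e6 UMIs of a sum) in tanycytes and 309 to 368 CPM in ependymal cells. Of 12 ependymal markers, 10 were higher in ependymal cells and 2, Mia and Tekt1, were not called, with a summed level of 8359 to 10013 CPM in ependymal cells and 1612 to 2176 CPM in tanycytes. Both labels therefore carried the markers of their name. Markers of other cells were present in both types. Neuron, oligodendrocyte and red blood cell markers had 0 of 7, 0 of 7 and 0 of 3 tested members called by edgeR or by DESeq2. The oligodendrocyte markers summed to 2021 to 3559 CPM in tanycytes and 1703 to 3260 CPM in ependymal cells. At an unadjusted p of 0.05, 3 oligodendrocyte markers and 0 of the other 2 lists passed in edgeR, and the most abundant, Mbp, was at 1282 to 2499 CPM in tanycytes and 945 to 2175 CPM in ependymal cells, against a mean of 7040 CPM in oligodendrocytes. Of 6 tested microglia markers 1, Aif1, was called higher in tanycytes by edgeR and 0 by DESeq2, all 6 had log2 fold changes above 0 with a median of 0.43, and the list summed to 150 to 258 CPM in tanycytes and 111 to 228 CPM in ependymal cells. Of 10 astrocyte markers 1 was called on each side, Slc1a2 in tanycytes and Aqp4 in ependymal cells, near the shares of all tested genes. The part of these markers of other cells in the other results was not tested.

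Of 8781 tested genes, 1743 were called (19.8%), which here means an adjusted p under 0.05 in edgeR's quasi-likelihood test and a change of more than 2-fold. The sides were unequal at this limit. Genes higher in ependymal cells numbered 1152 (13.1% of tested genes), and genes higher in tanycytes 591 (6.73%), and 1699 of the 1743 had the same sign in 4 of 4 mice. At the adjusted p alone, without the limit on fold change, the split was closer to even, with 2189 genes higher in ependymal cells and 1874 in tanycytes. The differences were larger on the ependymal side, where 114 genes had a log2 fold change (tanycytes over ependymal cells) below -4, against 21 genes above 4 on the tanycyte side. The median over all tested genes was 0.03. Genes called higher in ependymal cells carried 13.8% ± 0.558 (SD, n = 4) of the ependymal UMIs and 3.59% ± 0.0837 of the tanycyte UMIs. Genes called higher in tanycytes carried 11.5% ± 0.393 of the tanycyte UMIs and 3.34% ± 0.199 of the ependymal UMIs. Most transcripts of either cell thus came from genes that were not called.

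**Figure D1:**
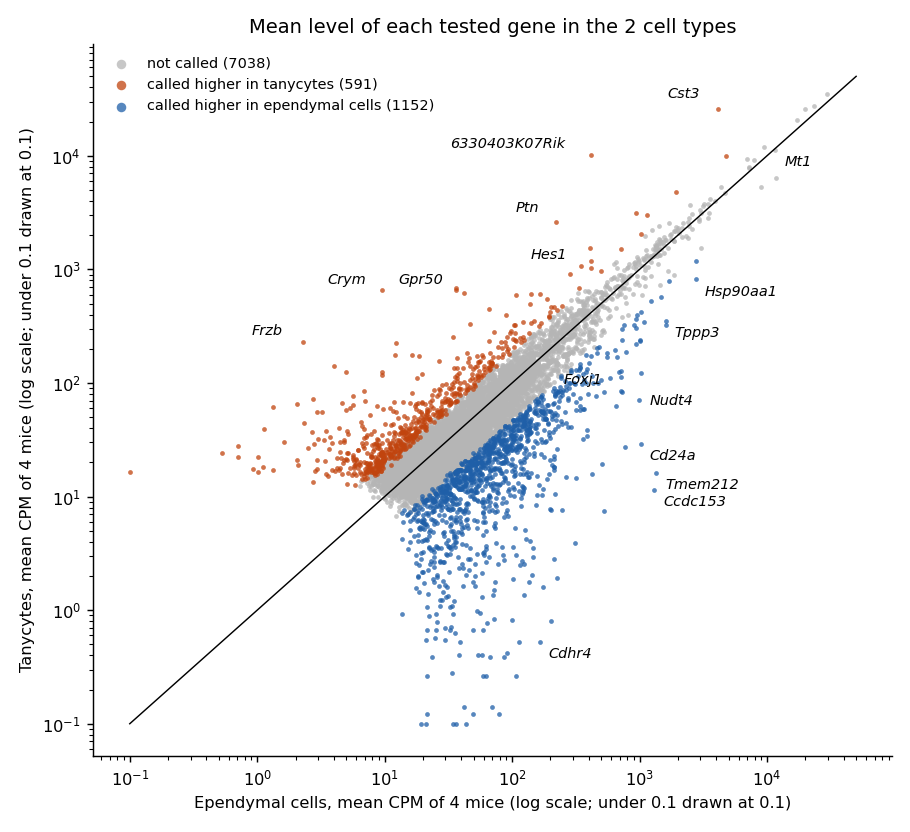
Mean CPM of each of the 8781 tested genes in ependymal cells (horizontal) and tanycytes (vertical), on log axes, over 4 mice, with 591 genes called higher in tanycytes, 1152 called higher in ependymal cells and 7038 not called. The genes of the ependymal side reach further from the line of equality than those of the tanycyte side, and Cst3 and 6330403K07Rik stand out among the abundant genes.

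Among called genes at 100 CPM or more, those with the largest relative excess in tanycytes were a secreted signalling antagonist, a thyroid hormone binding protein and a receptor of the same signalling pathway. Frzb, which encodes a secreted Wnt antagonist, was at 267, 268, 243 and 138 CPM in the tanycytes of mice 3, 4, 30 and 34, and at 4.85, 0, 4.22 and 0 CPM in their ependymal cells, where 5 UMIs were counted in all. Its log2 fold change was 6.61 ± 0.27 (SE). Crym, the cytosolic protein that binds thyroid hormone, was at 688, 593, 881 and 495 CPM in tanycytes and at 8.08, 2.89, 21.1 and 6.01 CPM in ependymal cells, a log2 fold change of 6.18 ± 0.18 (adjusted p 4.89e-30 by edgeR). Every tanycyte sum lay far above every ependymal sum for both genes. Fzd5, a Wnt receptor, was at 130 to 166 CPM against 1.62 to 6.33 CPM. Rax, the homeobox gene that defines tanycytes, was low in absolute terms, at 52.7 to 79.4 CPM, and only 3 of its UMIs were found in ependymal cells, so that the ratio of pooled rates was 45.1 with a 95% exact counting interval of 15.3 to 220.

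Col23a1, a transmembrane collagen, was at 668, 794, 626 and 680 CPM in the tanycytes of mice 3, 4, 30 and 34 against 40.4, 31.8, 27.4 and 45.7 CPM in ependymal cells. Gpr50, an orphan receptor related to the melatonin receptors, was at 563 to 698 CPM against 28.9 to 50.6 CPM, and Thrsp, a thyroid hormone responsive regulator of fat synthesis, at 570 to 715 CPM against 23.2 to 46.9 CPM. Each of these 3 genes had a log2 fold change between 3.98 and 4.25. Of the 15 genes with the largest fold changes at 100 CPM or more, the others were Deptor, an inhibitor of mTOR (4.41), Kctd14 (4.24), the LIM homeobox gene Lhx2 (3.87), the matrix proteoglycan gene Vcan (3.72), the growth factor gene Ptn (3.65), the ephrin receptor gene Ephb1 (3.65), Pdzph1 (3.48), the transcription factor gene Mef2c (3.19) and 6330403K07Rik (4.70). In none of the 15 did a tanycyte sum overlap an ependymal sum. Over all tested genes, the 4 tanycyte sums lay above the 4 ependymal sums in 13.2%, the reverse held in 22.6%, and the groups did not overlap in either direction in 35.7%.

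**Figure D2:**
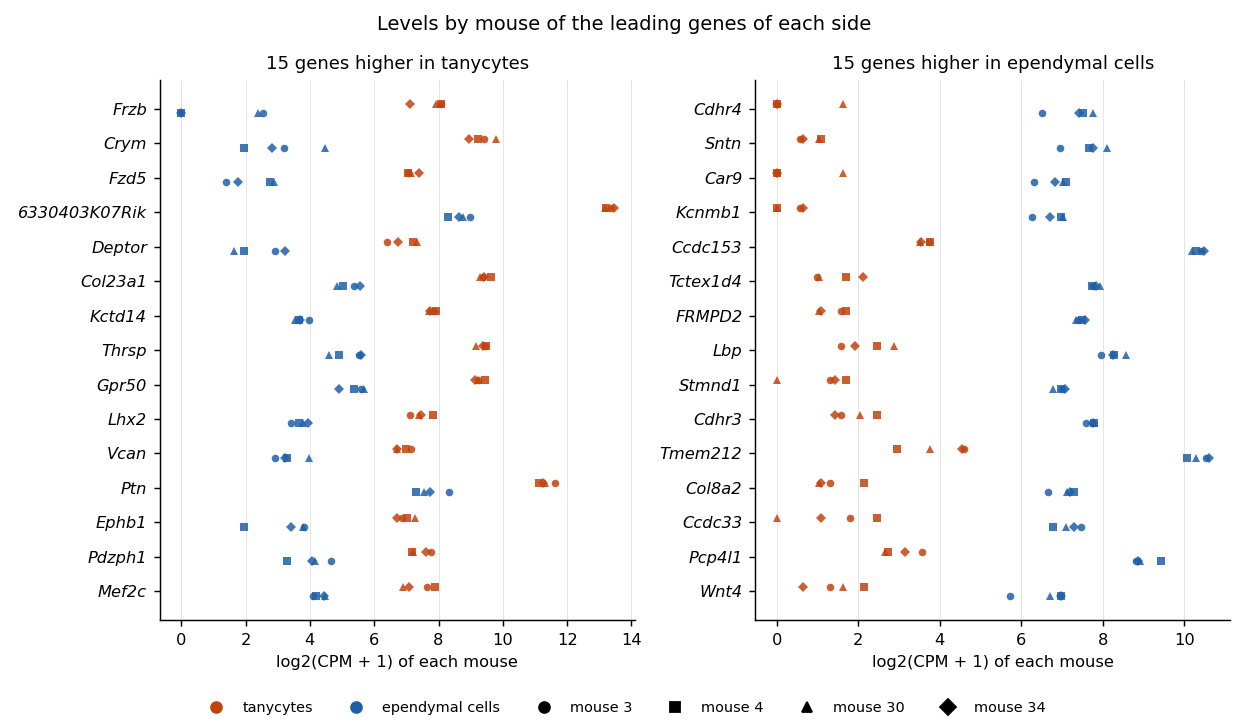
Level of each mouse, as log2(CPM + 1), for the 15 genes with the largest fold change on each side among genes at 100 CPM or more. Tanycyte and ependymal values of the 4 mice do not overlap for any of the 30 genes, and the lower type sits closer to 0 on the ependymal side.

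By absolute difference the order among called genes was another. Cst3, the secreted protease inhibitor cystatin C, was at 31325, 22322, 25290 and 23661 CPM in the tanycytes of mice 3, 4, 30 and 34 and at 5509, 3237, 3839 and 3979 CPM in ependymal cells, with a log2 fold change of 2.73 ± 0.10. The uncharacterised transcript 6330403K07Rik was at 10471, 9470, 9345 and 11134 CPM in tanycytes and at 501, 315, 432 and 401 CPM in ependymal cells. Nnat, a small membrane protein gene, S100a6, a calcium-binding protein gene, Ptn, Prdx6, a peroxiredoxin gene, and Ntrk2, which encodes the BDNF receptor TrkB, followed, with mean excesses of 5291, 2909, 2374, 2164 and 1866 CPM. Aldoc, Ppia and Slc1a2 completed the first 10 called genes by absolute difference. Genes with a less than 2-fold difference are outside this order, among them mt-Atp6, at 25680 against 20016 CPM on average.

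The leading tanycyte genes differed in how they were spread over the other cell types of the same mice. Crym, at 664 ± 164 CPM (SD, n = 4) in tanycytes, averaged at most 26.3 CPM in any of the other 8 types, and Fzd5, at 142 CPM, at most 9.88 CPM. 6330403K07Rik averaged 234 to 520 CPM in the other types. Ptn was at a mean of 2950 CPM in oligodendrocyte precursor cells, within whose range of 2218 to 3691 CPM the tanycyte values lay (mean 2593 CPM). Vcan was higher there (504 CPM against 119 CPM). Mef2c was higher in microglia (585 CPM against 171.5 CPM) and Ephb1 in committed oligodendrocyte precursors (210 CPM against 125 CPM). In astrocytes Aldoc (2562 CPM against 1542 CPM) and Slc1a2 (4074 CPM against 1525 CPM) were higher than in tanycytes. Flt1, the VEGF receptor gene whose main site in these data was the endothelium (2427 CPM), was at 96.9 to 123 CPM in tanycytes and 12.9 to 23.1 CPM in ependymal cells (log2 fold change 2.73 ± 0.19). The endothelial genes Pecam1, Kdr and Cldn5 had too few UMIs to be tested in either type. Of 4 tested endothelial and mural markers, Flt1 among them, 2 were called higher in tanycytes, as were 6.73% of all tested genes. All 4 had log2 fold changes above 0, with a median of 1.035. Over the whole list of 12 such markers the summed level was 205 to 235 CPM in tanycytes and 73.4 to 141 CPM in ependymal cells. Without Flt1 itself the sums overlapped, at 94.7 to 129 CPM and 54.1 to 124 CPM. Their part in the Flt1 difference was not tested.

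Wnt and Notch genes were called on both sides. Of 21 tested modulators, 8 were higher in tanycytes (6.73% of all tested genes) and 3 in ependymal cells (13.1%), with a median log2 fold change of 0.18, against 0.03 over all tested genes. The counts were 8 and 3 of 22 without mouse 30, and the median was 0.35 without mouse 30 and 0.09 without mouse 3. With thinned sums, 9 of the genes could be tested, of which 6 were higher in tanycytes and 0 in ependymal cells. Beside Frzb and Fzd5, the tanycyte side held Dkk3, a secreted glycoprotein of the Dickkopf family, at 55.1 to 124 CPM against 17.8 to 50.6 CPM, and the receptor gene Notch2 at 88.5 to 186 CPM against 31.8 to 90.6 CPM. Notch2 sums of the 2 types overlapped between mice, but the tanycyte value was the higher one in 4 of 4 mice. Notch1 was not called, with a log2 fold change of 0.63 ± 0.17. The ependymal members were Fzd3, Wnt5a and Sfrp5. The ligand gene Wnt4, which is not in this list, was also higher in ependymal cells, at a mean of 100.8 CPM against 1.89 CPM. The 4 members of the forebrain homeobox and T-box list that were higher in tanycytes were Rax, Lhx2, Six3 and Tbx3, out of 7 tested, while Otx2 was higher in ependymal cells (6.73% and 13.1% of all tested genes) and the hypothalamic gene Nkx2-1 was not called (0.65 ± 0.20). Six3 was at 118, 184, 164 and 161 CPM in tanycytes, and in ependymal cells it ranged from 9.70 CPM in mouse 3 to 58.9 CPM in mouse 34.

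Thyroid hormone handling was split by step. Binding and activation were on the tanycyte side. Crym is described above. Dio2, the deiodinase that makes the active hormone, was at 17.2 to 37.9 CPM against 0 to 6.47 CPM (3.16 ± 0.44). The receptor gene Thra did not differ detectably (0.06 ± 0.10, adjusted p 0.661 by edgeR). Of the 14 tested genes of the thyroid hormone and retinoid list, 4 were higher in tanycytes and 3 in ependymal cells. These shares were 6.73% and 13.1% over all tested genes. The other 7 were not called, and the median was 0.02. The 3 on the ependymal side were Rarres2, Rdh10 and Dhrs3. Rarres2, which encodes the chemoattractant chemerin, was at 1305 to 1893 CPM in ependymal cells against 233 to 408 CPM in tanycytes. Rdh10 was close to level in mouse 3, with a log2 ratio of -0.090 there. The carrier gene Ttr was called higher in tanycytes, but on the strength of 1 mouse. Its tanycyte level was 281 CPM in mouse 3 and 4.54, 37.9 and 15.7 CPM in mice 4, 30 and 34. Without mouse 3 its log2 fold change was 0.78 with an adjusted p of 0.148 by edgeR.

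Tanycytes held more transcripts of several secreted growth factors. Of 14 tested growth factor and IGF binding protein genes, 6 were higher in tanycytes (6.73% of all tested genes) and 2 in ependymal cells (13.1%), the latter near the share of all genes. Ptn, a heparin-binding growth factor, was at 3146, 2243, 2542 and 2439 CPM in the tanycytes of mice 3, 4, 30 and 34 against 322, 156, 188 and 211 CPM in ependymal cells. Mdk, its only close relative, was at 283 to 372 CPM against 71.7 to 129 CPM, a log2 fold change of 1.75 ± 0.11, so that both members of this small family lay on the same side. Gdf11, a TGF-beta family ligand, was at 47.6 to 75.7 CPM against 5.78 to 29.1 CPM. Pdgfa lay on the other side, at 21.1 to 37.4 CPM against 85.4 to 113 CPM. Summed over the list, tanycytes held 3915 ± 363 CPM and ependymal cells 1284 ± 136 CPM (SD, n = 4), and Ptn made up most of the difference.

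Metabolic genes differed by pathway. Of 22 tested genes of glycolysis and lactate, 5 were higher in tanycytes (6.73% of all tested genes) and 2 in ependymal cells (13.1%), with a median of 0.56 and 17 of 22 log2 fold changes above 0. Aldoc, the brain aldolase, was at 1335, 1435, 2202 and 1196 CPM in the tanycytes of mice 3, 4, 30 and 34 against 493, 335, 399 and 411 CPM in ependymal cells (1.94 ± 0.11). Ldha and Ldhb, the subunits of lactate dehydrogenase, had log2 fold changes of 1.60 ± 0.13 and 1.21 ± 0.10, and Tpi1 1.27 ± 0.10. Gapdh was also higher in tanycytes in 4 of 4 mice, at 766 to 862 CPM against 537 to 633 CPM, without passing the limit on fold change (0.55 ± 0.09). The 2 genes on the ependymal side were Slc2a1, the glucose transporter GLUT1 (-2.11), and Pdk1, a kinase that shuts off pyruvate dehydrogenase (-1.37). In the list of the tricarboxylic acid cycle, the next step of the pathway, 1 of 26 tested genes was called (19.8% of all tested genes), Idh3a, at 44.2 to 64.7 CPM in tanycytes against 76.0 to 165 CPM in ependymal cells, and the list's median was 0.09. Without mouse 30 this call was lost (-0.95 against -1.06 with it) and 0 of the 26 genes were called.

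Respiratory chain genes differed by little and mostly one way. Of 81 tested nuclear genes, 75 had log2 fold changes above 0, with a median of 0.32, and the list summed to 31402 to 35317 CPM in tanycytes and 25064 to 31211 CPM in ependymal cells. The call was reached by 4 of the 81, all higher in tanycytes, where 6.73% of all tested genes were, and 3 of the 4 encode tissue-specific isoforms of cytochrome c oxidase subunits, Cox6a2, Cox6b2 and Cox7a1. Cox6a2, the heart and muscle isoform, was at 46.4 to 63.5 CPM against 6.01 to 9.70 CPM (2.82 ± 0.27), and Cox6b2 at 35.8 to 88.0 CPM against 8.44 to 24.1 CPM. The fourth, Ndufc2, was at 844 to 1003 CPM against 228 to 338 CPM. The common subunit genes Cox4i1 and Cox6c were not called. Of the 13 protein genes of the mitochondrial genome, 0 were called by edgeR or DESeq2, all 13 had an unadjusted p under 0.05, and 13 had log2 fold changes above 0, from 0.19 to 0.49, beside the higher mitochondrial share of tanycytes given above. Adjusted p fell under 0.05 without the fold limit in 12 of the 13.

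Cholesterol genes were called more on the tanycyte side and amino acid transporter genes on both. In the cholesterol list 4 of 17 tested genes were higher in tanycytes (6.73% of all tested genes), among them Hmgcs1, the entry enzyme of the pathway, at 112 to 171 CPM against 51.7 to 72.2 CPM, and Insig1, a brake on the pathway, at 63.2 to 104 CPM against 21.1 to 32.3 CPM, while Lss was higher in ependymal cells (-1.15), a call lost without mouse 30 (-0.91) and under DESeq2 (adjusted p 0.0654). Of 11 tested genes of glutamate, GABA and glycine uptake, 2 were higher in each type, where 6.73% of all tested genes were higher in tanycytes and 13.1% in ependymal cells. The glutamate transporter genes Slc1a3 and Slc1a2 were higher in tanycytes, with log2 fold changes of 1.59 ± 0.09 and 1.18 ± 0.09, and the amino acid transporter gene Slc38a3 (-2.02 ± 0.18) and the glycine transporter gene Slc6a9 (-1.28 ± 0.20) in ependymal cells. Of 29 tested genes of oxidative defence, 4 were higher in tanycytes, led by Prdx6 at 2850 to 3501 CPM against 816 to 1103 CPM, and 1, the thioredoxin gene Txn1, was higher in ependymal cells, at 598 to 856 CPM against 200 to 279 CPM, where 6.73% and 13.1% of all tested genes were called on these sides.

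Progenitor, matrix and junction genes were found on both sides. Of 21 tested radial glia and progenitor genes, 5 were higher in tanycytes and 3 in ependymal cells, where 6.73% and 13.1% of all tested genes were. Hes1, a Notch target that keeps progenitors undifferentiated, was at 476, 1665, 803 and 1322 CPM in the tanycytes of mice 3, 4, 30 and 34 and at 157, 661, 188 and 377 CPM in their ependymal cells. Its level varied between mice by as much as it did between types, so that the sums overlapped, yet within each mouse tanycytes were higher (log2 fold change 1.78 ± 0.10). Hey1, another Notch target, lay on the ependymal side, at 50.1 to 143 CPM against 7.94 to 15.8 CPM in tanycytes (-2.93 ± 0.20). Vim, Sox2, Sox9 and Nes, common marks of radial glia, were not called. Cd24a, a surface glycoprotein, was on the ependymal side, at 666, 938, 1472 and 994 CPM against 26.5, 30.6, 34.8 and 24.1 CPM in tanycytes (-5.00 ± 0.12). Of 21 tested matrix genes, 8 were higher in tanycytes, including Col23a1, Vcan and Bcan, and 5 in ependymal cells, including Sparcl1 and Timp4, where 6.73% and 13.1% of all tested genes were. Among junction genes, tanycytes held more Cdh2, the N-cadherin gene (370 to 428 CPM against 82.5 to 101 CPM), and Cldn10, and ependymal cells more Ocln, the occludin gene (94.9 to 147 CPM against 28.4 to 42.8 CPM), and the polarity gene Crb2.

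On the ependymal side, the leading genes were close to absent in tanycytes. Cdhr4, a cadherin-related gene, was at 90.6, 182, 217 and 170 CPM in the ependymal cells of mice 3, 4, 30 and 34, and 2 of its UMIs, both in mouse 30, were found among 5650235 UMIs of tanycytes. The ratio of pooled rates was 452, with a 95% exact counting interval of 124 to 3744. Sntn, which encodes sentan, a protein of the ciliary tip, was at 123, 202, 274 and 215 CPM against 0.49, 1.13, 1.05 and 0.56 CPM in tanycytes (log2 fold change -7.75 ± 0.26). Ccdc153, a coiled-coil gene used to mark ependymal cells, was at 1368, 1259, 1162 and 1442 CPM against 12.3, 12.5, 10.5 and 10.7 CPM (-6.76 ± 0.13, adjusted p 6.50e-36 by edgeR), and Tmem212 at 1068 to 1555 CPM against 6.81 to 23.1 CPM. The tanycyte level of Ccdc153 was in the range of its mean in oligodendrocytes (7.32 CPM), endothelial cells (11.2 CPM) and microglia (16.8 CPM).

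The 15 genes with the largest fold changes at 100 CPM or more on this side also held Tctex1d4, a dynein light chain gene (-6.67), FRMPD2 (-6.59), Lbp, the lipopolysaccharide binding protein gene (-6.32), Stmnd1 (-6.27), the cadherin-related gene Cdhr3 (-6.24), the collagen gene Col8a2 (-6.16), Ccdc33 (-6.12), Pcp4l1 (-5.85) and the ligand gene Wnt4 (-5.69). Car9, a carbonic anhydrase gene, and Kcnmb1, a potassium channel subunit gene, had 2 UMIs each in tanycytes, with ratios of pooled rates of 311 (85.2 to 2583) and 295 (80.8 to 2449). By absolute difference the called genes on the ependymal side were led by Hsp90aa1, a heat shock protein gene, at 2282 to 3268 CPM against 724 to 972 CPM, followed by Ptma, Tmem212, Ccdc153, Rarres2, Tppp3, Cd24a, Sparcl1, Clu and Nudt4. Nudt4, a diphosphoinositol polyphosphate phosphatase gene, was at 820, 1340, 833 and 957 CPM against 74.7, 93.0, 60.0 and 56.6 CPM (-3.70 ± 0.10).

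Every called gene of the motile cilium lists lay on the ependymal side. By edgeR 0 of the 98 tested genes of these lists were called higher in tanycytes, as by DESeq2, and 0 had a log2 fold change above 0 with an unadjusted p under 0.05. Of 25 tested axonemal dynein and docking genes 18 were higher in ependymal cells, of 11 dynein arm assembly factors 9, of 18 radial spoke and central pair genes 14, of 19 tektin and other axoneme genes 15, of 23 genes named Cfap 20 and of 9 tubulin ligase genes 5, where 13.1% of all tested genes were. Their median log2 fold changes were -1.86, -1.52, -2.35, -1.47, -1.75 and -1.49. Intraflagellar transport, which also serves the primary cilium of most cells, had 13 of 27 genes called and a median of -0.998, and the BBSome and transition zone list 9 of 26 and -0.61. The lists share some members.

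**Figure D3:**
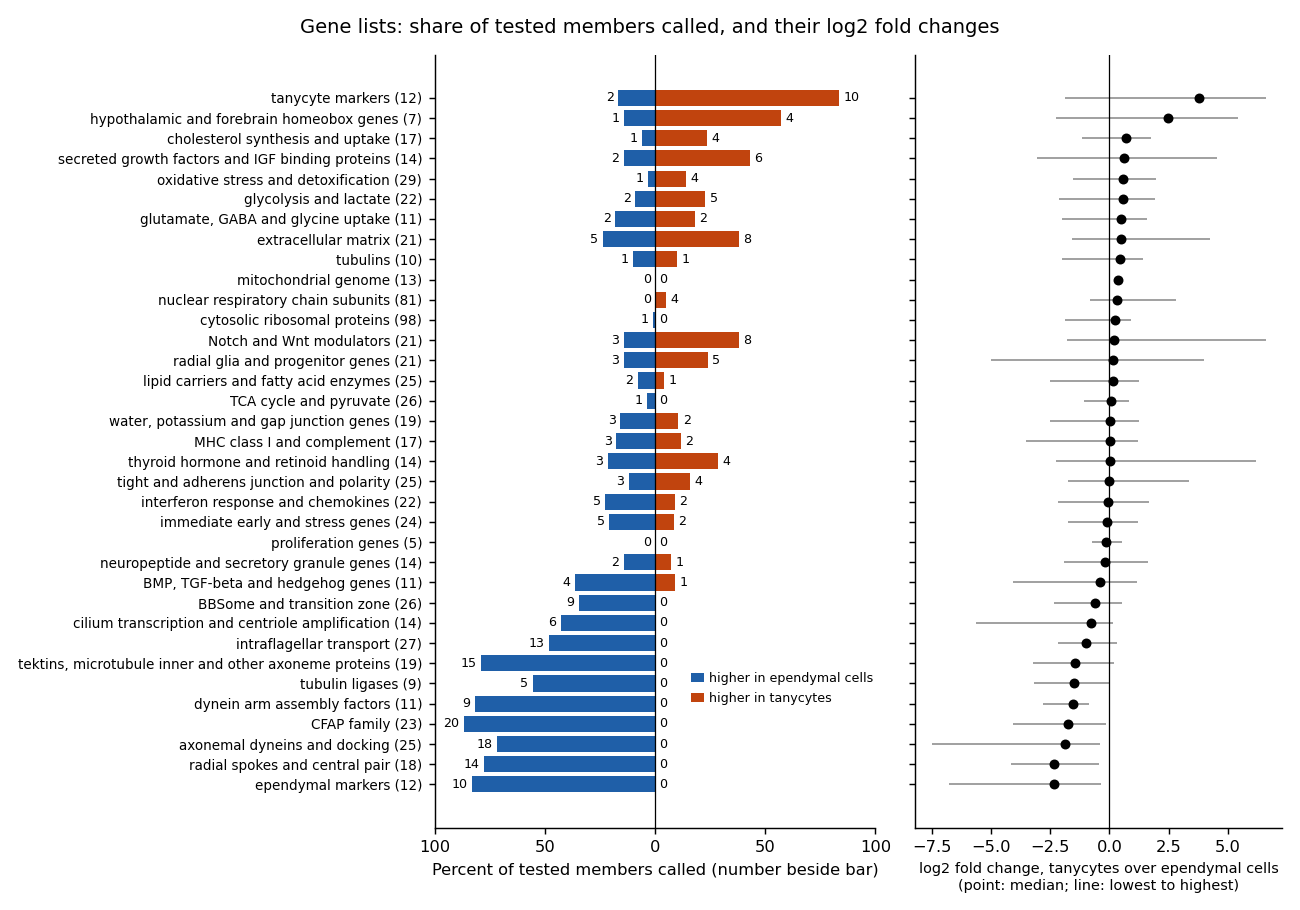
Gene lists in order of their median log2 fold change (tanycytes over ependymal cells), with the number of tested members in parentheses. Left, the percent of tested members called on each side, with the number beside the bar. Right, the median (point) and the lowest to highest member (line). The 9 lists of cilium structure, transport and transcription lie near the bottom beside the ependymal markers, with 0 members called higher in tanycytes, and the tubulins lie above 0 with 1 called on each side.

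The size of the difference was not the same from one cilium gene to the next. Over the 98 tested genes of the 6 structural lists, of which 75 were called, the tanycyte level was a median of 27.7% of the ependymal level (quartiles 17.2% and 45.0%), while oligodendrocytes were at a median of 1.75% and astrocytes at 3.69%. In 94 of the 98 genes tanycytes were above oligodendrocytes. Genes of one kind were spread over the range. Among the lowest, Dnah3, a dynein heavy chain gene, had 1 UMI in tanycytes against 135 in ependymal cells, Spag17 was at 4.81% and Hydin, which is needed for the central pair, at 8.02%. Dnah12, an inner arm heavy chain gene, was at 29.5 to 37.9 CPM in tanycytes against 326 to 482 CPM in ependymal cells (-3.36 ± 0.12). Rsph1, a radial spoke head gene, was at 139, 125, 120 and 121 CPM against 758, 716, 620 and 656 CPM (-2.36 ± 0.09). At the other end, 20 genes were at 50% or more, such as Nme5 (163 to 188 CPM against 208 to 293 CPM) and Rsph9 (-0.62 ± 0.12), both of the radial spokes, the dynein heavy chain genes Dnah7a (67.9%) and Dnah7b (54.8%), and Morn2, at 108%. The values of single genes named here beyond the rule, such as Dnah3, Spag17, Dnah7a, Dnah7b and Morn2, were chosen after they were seen.

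**Figure D4:**
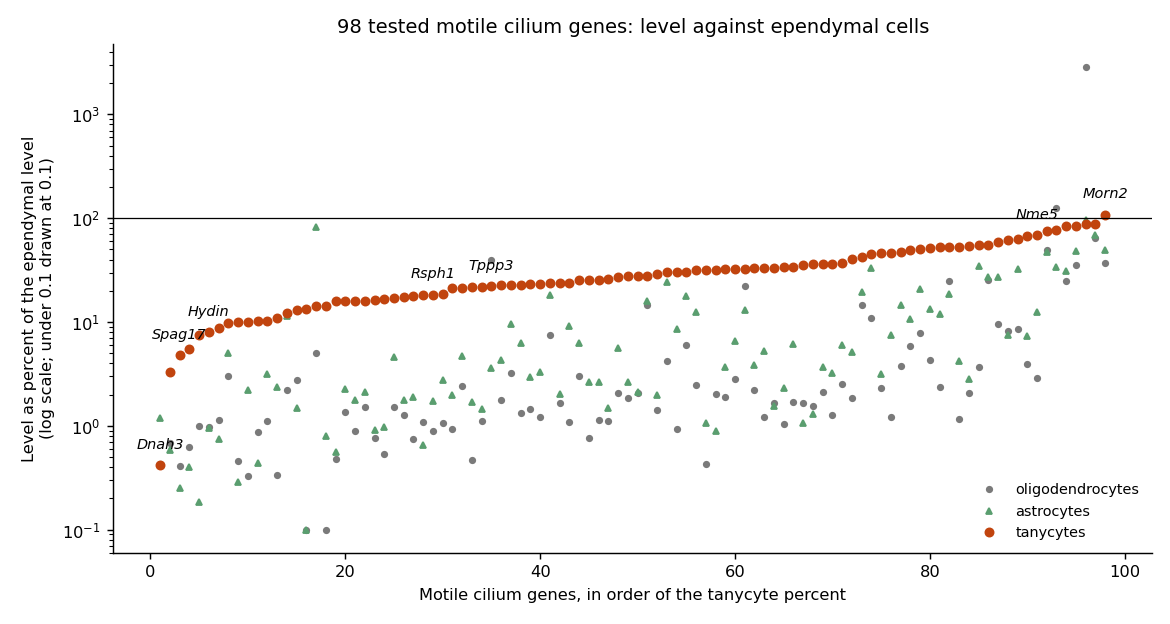
Level of 98 tested motile cilium genes in tanycytes, astrocytes and oligodendrocytes as a percent of the ependymal level (log scale), in order of the tanycyte percent. Tanycyte values run from 0.421% for Dnah3 to 108% for Morn2 with a median of 27.7%, above the oligodendrocyte value in 94 genes.

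Transcripts of the cilium lists were found in most tanycytes, but also in most oligodendrocytes and astrocytes. With each cell thinned to 800 UMIs, a UMI of the 113 cilium genes was found in 96.1% of tanycytes and 100% of ependymal cells. The shares were 79.1% in oligodendrocytes and 61.9% in astrocytes (means of 4 mice). At this depth the median tanycyte held 3 or 4 such UMIs in each mouse and the median ependymal cell 12 to 14. The median oligodendrocyte held 1 or 2 and the median astrocyte 1. More than 10 such UMIs were found in 0.659% to 2.81% of tanycytes and in 70.0% to 77.3% of ependymal cells. The thinning left out 758 tanycytes and 279 ependymal cells of lower depth. Dynlrb2, a dynein light chain gene, was detected in 26.0% ± 3.26 of thinned tanycytes, 51.4% ± 3.68 of ependymal cells and 1.21% ± 0.559 of oligodendrocytes (SD, n = 4 mice), and in 36.0%, 65.9% and 1.69% without thinning. Fam183b was detected in 21.4% ± 4.66, 40.4% ± 10.8 and 1.25% ± 0.329, and Enkur in 9.55% ± 0.391, 22.7% ± 0.661 and 0.429% ± 0.424. Ccdc153 by contrast was detected in 0.726% ± 0.467 of tanycytes, 59.5% ± 3.15 of ependymal cells and 0.407% ± 0.197 of oligodendrocytes. The median depth per cell was 894 to 1304 UMIs in oligodendrocytes, close to that of the other 2 types.

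The regulators of the cilium programme were graded too. Foxj1, the master regulator of motile cilia, was at 639, 751, 713 and 752 CPM in the ependymal cells of mice 3, 4, 30 and 34 and at 79.6, 78.3, 72.7 and 108 CPM in tanycytes, a log2 fold change of -2.96 ± 0.10, where oligodendrocytes averaged 22.1 CPM and astrocytes 17.4 CPM. It was detected in 6.50% ± 0.849 of thinned tanycytes, 43.4% ± 5.82 of ependymal cells and 1.57% ± 0.590 of oligodendrocytes. Myb and Trp73, which act upstream in multiciliated cells, and Ccdc78, a gene of centriole amplification, were near the floor in tanycytes, with Myb at 2.24 to 3.40 CPM against 114 to 173 CPM (-5.60 ± 0.23), Trp73 at 0.49 to 1.13 CPM against 45.3 to 69.3 CPM, and Ccdc78 at 1.13 to 3.93 CPM against 72.8 to 150 CPM. Among the RFX genes, Rfx2 was higher in ependymal cells (-1.37), while Rfx3 stood at 118 to 148 CPM in tanycytes and 134 to 152 CPM in ependymal cells and was not called. Of the 14 tested genes of this list, 6 were called, the remaining one being Ulk4, all higher in ependymal cells as were 13.1% of all tested genes. The tubulin gene Tubb4b was at 694 to 867 CPM in ependymal cells against 157 to 211 CPM in tanycytes, and Tubb2b lay on the other side (1.42 ± 0.12).

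Promoter sequences from RefSeq (GRCm38.p6) were searched for 4 motifs on both strands, from 250 bases before to 50 bases after each start, for 6841 of the 8781 tested genes that matched by symbol. The motifs were the RFX X-box by its name, its 8-base site GTTGCCAT, a forkhead motif GTAAACA and an NFI palindrome. The 8-base site was found for 4.14% of 870 genes called higher in ependymal cells, 1.10% of 456 called higher in tanycytes and 1.80% of all tested genes. It was found for 1.54% of all 27025 genes with a promoter, and in 1.35% of all 32851 windows of this length in the table. The forkhead motif was found for 5.29%, 3.95%, 3.32% and 4.05% of the same gene groups and in 3.65% of all windows. For the X-box these were 1.38%, 0.439%, 0.833%, 0.529% and 0.451%. The shares did not all rise with the difference. For 80 ependymal genes with a log2 fold change below -4, they were 2.5% (8-base site), 10% (forkhead) and 0% (X-box). For 559 between -2 and -1 they were 4.29%, 4.65% and 1.25%. The 8-base site and X-box letters overlapped in 23 windows. The NFI palindrome occurred for 2 tested genes. No test was made of these shares, and a match is a description of letters and not a site of binding. The 250 bases before the start are printed for 4 named genes, with the matches in capitals, because 3 of them belong to the cilium side and the fourth shows that the same letters also stand before a tanycyte gene. They are Sntn at chr14:13670626-13670875 (plus strand, forkhead motif and 8-base site), Iqca, a gene of the dynein regulatory complex, at chr1:90153437-90153686 (minus strand, X-box), Cfap44 at chr16:44394549-44394798 (plus strand, 8-base site on the reverse strand) and the tanycyte homeobox gene Six3 at chr17:85620584-85620833 (plus strand, X-box).
Sntn: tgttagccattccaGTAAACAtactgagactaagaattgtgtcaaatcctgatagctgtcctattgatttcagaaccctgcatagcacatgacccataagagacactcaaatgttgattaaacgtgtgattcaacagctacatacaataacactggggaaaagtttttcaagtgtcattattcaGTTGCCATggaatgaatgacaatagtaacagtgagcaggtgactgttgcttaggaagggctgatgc
Iqca: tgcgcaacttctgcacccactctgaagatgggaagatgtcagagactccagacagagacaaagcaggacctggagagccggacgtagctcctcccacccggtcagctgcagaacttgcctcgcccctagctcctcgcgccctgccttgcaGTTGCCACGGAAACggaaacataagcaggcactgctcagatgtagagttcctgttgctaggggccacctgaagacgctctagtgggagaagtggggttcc
Cfap44: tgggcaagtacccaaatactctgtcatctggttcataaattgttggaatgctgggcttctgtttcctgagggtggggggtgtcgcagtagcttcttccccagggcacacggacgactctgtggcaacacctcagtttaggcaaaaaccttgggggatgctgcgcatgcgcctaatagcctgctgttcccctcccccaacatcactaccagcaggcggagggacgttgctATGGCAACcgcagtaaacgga
Six3: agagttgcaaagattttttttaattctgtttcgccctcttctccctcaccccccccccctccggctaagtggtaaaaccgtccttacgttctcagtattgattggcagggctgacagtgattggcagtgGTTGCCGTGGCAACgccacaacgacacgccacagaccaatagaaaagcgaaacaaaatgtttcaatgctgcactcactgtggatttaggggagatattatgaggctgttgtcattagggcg
Of these 4 genes, Iqca was at 14.8 to 24.95 CPM in tanycytes and 177 to 274 CPM in ependymal cells (-3.16 ± 0.15) and Cfap44 at 43.1 to 56.0 CPM and 202 to 245 CPM (-2.002 ± 0.13).

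Beyond cilia, single genes of several groups were higher in ependymal cells while most of these groups were not. Of 19 tested water, potassium and gap junction genes 3 were higher in ependymal cells and 2 in tanycytes (median 0.04), and of 25 lipid genes 2 and 1 (median 0.14), where 13.1% and 6.73% of all tested genes were. Aqp4, the water channel, was at 288, 410, 477 and 272 CPM in the ependymal cells of mice 3, 4, 30 and 34 against 48.7, 57.9, 87.4 and 43.1 CPM in tanycytes (-2.52 ± 0.11). Pltp, a phospholipid transfer protein gene, was at 582 to 810 CPM against 87.3 to 140 CPM, and Clu, the apolipoprotein clusterin gene, at 1346 to 1795 CPM against 480 to 635 CPM. Apoe was not called (0.82 ± 0.09). Tm4sf1, a tetraspanin-like membrane protein gene, and Hdc, the enzyme that makes histamine, had log2 fold changes of -4.71 ± 0.12 and -4.70 ± 0.14. Of 11 tested genes of the BMP, TGF-beta and hedgehog list, 4 were higher in ependymal cells, among them the receptor gene Tgfbr2, at 40.4 to 78.0 CPM against 1.13 to 5.27 CPM, and the hedgehog co-receptor gene Boc, and 1, the ligand gene Tgfb2, in tanycytes, where 13.1% and 6.73% of all tested genes were. The Tgfb2 call (1.17) was lost when cells with a silhouette score under the median were left out (0.19).

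Genes used to mark the choroid plexus, the neighbouring epithelium that makes cerebrospinal fluid, were mostly on the ependymal side: 3 of the 5 tested were higher there (13.1% of all tested genes), and the 1 called in tanycytes, Ttr, was not called without mouse 3. Folr1, a folate receptor gene, was at 59.8, 43.3, 50.6 and 42.1 CPM in the ependymal cells of mice 3, 4, 30 and 34 and at 0.98, 1.13, 0 and 0.56 CPM in tanycytes. Clic6 was at 56.6 to 96.2 CPM against 7.94 to 13.7 CPM, and Otx2 at 13.2 to 30.7 CPM against 1.48 to 7.28 CPM. Ttr, the defining transcript of that epithelium, was at 0 to 21.7 CPM in the same ependymal cells. Over the whole list of 10 genes, 9 of them in the files, the summed level was 167 to 199 CPM in ependymal cells and 42.0 to 323 CPM in tanycytes, where the highest value was the Ttr of mouse 3. Npy, a neuropeptide gene of arcuate neurons, was higher in ependymal cells too, at 72.8 to 170 CPM against 15.7 to 48.5 CPM (-1.90 ± 0.21), beside neuron markers whose summed level was 248.9 to 358 CPM in ependymal cells and 329 to 440 CPM in tanycytes.

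How many interferon, chemokine and antigen presentation genes were called on each side depended on the mice included, while several single calls did not depend on mouse 30. With all 4 mice, 2 of 22 tested interferon and chemokine genes were higher in tanycytes and 5 in ependymal cells, where 6.73% and 13.1% of all tested genes were, with a median of -0.05. Without mouse 30, 5 of 17 were higher in tanycytes and 2 in ependymal cells, with a median of 0.35. In that fit 1832 of 8853 tested genes were called. Genes with too few UMIs in the other mice, such as Cxcl10, were no longer tested. In the list of MHC class I and complement genes the counts went from 2 and 3 of 17 to 5 and 2 of 16, and the median from 0.04 to 0.36. The balance of both lists thus moved when mouse 30 was left out, but the tested members changed too, and other settings also moved it. Under DESeq2 with all mice, the interferon median was 0.26, with 2 genes called on each side. The MHC and complement median was 0.29 under DESeq2. It was -0.16 without mouse 3 (1 and 5 of 18 called) and -0.29 without mouse 4 (2 and 4 of 18).

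Cxcl10, a chemokine gene induced by interferon, was at 0, 0, 3731 and 38.5 CPM in the ependymal cells of mice 3, 4, 30 and 34 and at 9.34, 3.40, 855 and 12.9 CPM in tanycytes. It was called higher in ependymal cells by edgeR (-1.81 ± 0.20), but tanycytes were higher in 2 of the 4 mice. Without mouse 30 it had too few UMIs to be tested, and without the block for mouse its adjusted p was 0.293. Nfkbia, an inhibitor of NF-kappaB, was at 42.0, 46.2, 1251 and 117 CPM in ependymal cells and at 15.2, 18.2, 359 and 32.5 CPM in tanycytes. Its call was lost without the block (adjusted p 0.164 by edgeR). With the block its call held without mouse 30 (-1.57), and ependymal cells were higher in 4 of 4 mice. The same was true of Gbp2, an interferon-induced GTPase gene (-2.19, and -1.66 without mouse 30), and of Ifitm3, at 375 to 1839 CPM against 157 to 529 CPM (-1.47, and -1.36). Bst2, the tetherin gene, was higher in tanycytes, at 133, 109, 219 and 149 CPM against 25.9, 26.0, 122 and 40.9 CPM (1.68, and 2.14 without mouse 30). Ifit1 and Ifit3 were not called with all mice (0.36 and 0.75) and passed the call on the tanycyte side without mouse 30, at 1.77 and 1.52.

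**Figure D5:**
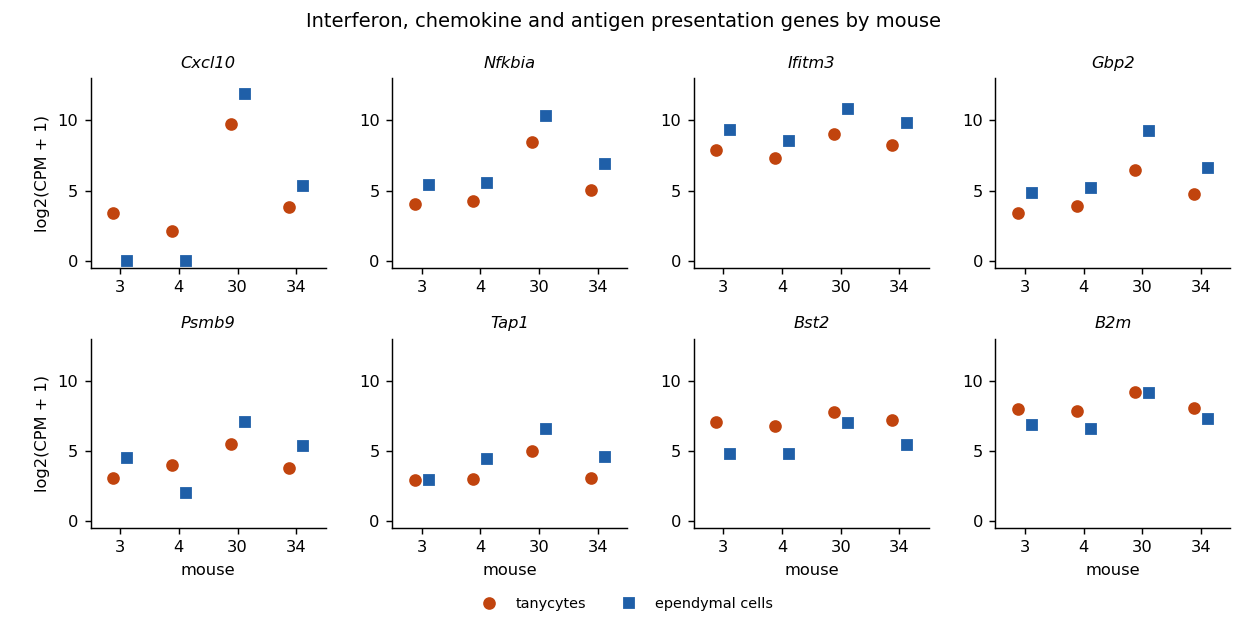
Level of 8 interferon, chemokine and antigen presentation genes in tanycytes and ependymal cells of each mouse, as log2(CPM + 1). Mouse 30 is the highest of the 4 mice in both types for all 8 genes, Nfkbia, Ifitm3 and Gbp2 are higher in ependymal cells in 4 of 4 mice, and Bst2 is higher in tanycytes in 4 of 4 mice.

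Many abundant genes were alike in both types. Mt1, a metallothionein gene, was at 10357 to 12612 CPM in tanycytes and 9970 to 13556 CPM in ependymal cells (log2 fold change 0.05 ± 0.09), and Mt2, the ferritin gene Fth1 and the carboxypeptidase gene Cpe also lay within 0.25 of 0. Of 98 tested genes whose symbol begins with Rpl or Rps and a digit, 1 was called (19.8% of all tested genes), Rps6ka2, which encodes a kinase and not a ribosomal protein, while 86 of the 98 had log2 fold changes above 0, with a median of 0.25. Gja1, the main gap junction gene of glia, and Sparc were level as well (-0.06 ± 0.09 and -0.07 ± 0.08). Among proliferation genes, 5 of 22 had enough UMIs and 0 were called by edgeR or DESeq2. An unadjusted p of 0.05 was passed by 3 of them in edgeR, and 2, Ccnd1 and Ccnd2, also passed an adjusted p of 0.05 without the limit on fold change.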

How the data were processed

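Cells were captured as single-cell libraries of the hypothalamus, 1 mouse per library. The deposited matrix holds raw UMI counts per gene and cell, and the submitters' processing notes name Cell Ranger 1.2, Seurat, and the builds GRCm38, mm10 and GRCh38, without saying what each was used for. The authors' deposited cell table gives the library, the cell type label, the count totals, the mitochondrial percent, a doublet score as a fraction and a silhouette score, and does not name the callers. The 12 other libraries of the table are not among the labelled samples and were not used, nor was the normalized matrix. Doublets were not removed beyond what the authors did, and leaving out cells above the 90th percentile of the doublet score was an alternative.

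Counts were summed per mouse and label and tested with edgeR 4.0.16 (R 4.3.3) by the quasi-likelihood F test with mouse as a block, TMM normalization, filterByExpr with the type as group, and Benjamini-Hochberg adjustment over all 8781 tested genes. A call needed an adjusted p under 0.05 and a log2 fold change beyond 1. The mouse is the same animal on both sides of a pair, and same-mouse deviations correlated at 0.132 to 0.348. CPM is the count over the UMIs of a sum, times 1e6, without TMM. The UMIs mark transcript ends and were not divided by length. The estimated biological coefficient of variation was 0.0813. In simulated data with 8454 genes of this comparison, 85.6% of genes changed 2-fold passed the adjusted p and 41.2% the call. Of those changed 4-fold, 100% were called. The 2-fold genes lay exactly at the limit on fold change, so the share of them called was set largely by that limit. The simulated mice differed only by depth and random spread, without effects of mouse or pairing. These shares need not hold for the real data. DESeq2 1.42.0 was an alternative. Intervals cover counting error only.

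The text names the 15 genes per side with the largest fold change among called genes of at least 100 CPM with the same sign in 4 mice, the 10 per side with the largest CPM difference, up to 4 called and 2 uncalled genes of highest CPM from each of 43 lists, the tested markers of both types, and 8 abundant genes within 0.25 of 0, as far as they are described. Genes outside this rule (Rdh10, Dhrs3, Pdk1, Slc2a1, Sox2, Nes, Spag17, Hydin, Dnah3, Trp73, Rfx2, Morn2, Dnah7a, Dnah7b, Fzd3, Wnt5a, Sfrp5, Ccnd1) were chosen after their values were seen. The comparison and the lists were chosen with earlier results of these data known. 1 gene is not reported here.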

Additional observations from a re-analysis of the deposited data

Results flagged for a closer look

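In a group of 4 mice a value was singled out where its gap to the nearest mouse exceeded the 95% critical value of Dixon's test, which chance does for about 5% of groups. Of 207 values screened, 10 (4.83%) were singled out, 3 of them by mouse 30. The median silhouette score of ependymal cells was 0.124 in mouse 30 against 0.340 to 0.372 in the others. The within-mouse median log2 ratio (tanycytes over ependymal cells) of the Notch and Wnt list was -0.14 in mouse 30 against 0.13 to 0.16, and the ratio of Timp4 was -1.45 in mouse 30 against -1.24 to -1.22. In mouse 4 the medians were -2.03 for the CFAP family against -1.84 to -1.82 and 0.45 for tubulins against 0.09 to 0.14, and the ratios were -1.08 for Clu against -1.52 to -1.46 and -2.09 for Ocln against -1.72 to -1.65. In mouse 3 the ratio was 0.80 for Cldn10 against 1.54 to 1.65 and -0.090 for Rdh10 against -1.90 to -1.81. In mouse 34 the ratio of Wnt4 was -6.80 against -5.06 to -4.76, and it rests on 1 UMI in tanycytes there.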

How the results depend on the processing

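Of the 1743 called genes, 1724 were called with DESeq2's size factors, 1711 with no replicate block, 1578 with DESeq2 and 968 with sums thinned to equal totals, and 0 had the opposite sign among the shared calls of any setting. Without the replicate block 1744 genes were called, and among the genes named above the calls of Cxcl10 (adjusted p 0.293), Nfkbia (0.164) and Aif1 (0.0685) were lost. With thinned sums 1110 genes were called, 339 of them higher in tanycytes, and 711 of the 775 lost genes had too few UMIs to be tested, so depth limits what is called. Without the filter on low counts 960 were higher in tanycytes. Leaving out each mouse in turn gave 1754 to 1920 called genes, 605 to 653 higher in tanycytes and 1149 to 1268 higher in ependymal cells.

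The sign turned for Cxcl10 under DESeq2 (0.54), for Ifit1 without the block (-0.10) and with thinned sums (-0.035), for Mt1 without mouse 4 (range over mice left out -0.014 to 0.081) and for Thra without mouse 3 (-0.014 to 0.157). Rfx3 turned to 0.0027 without the filter, 0.0100 without mouse 30 (range -0.114 to 0.0100, with 0.0041 without mouse 34), 0.058 with thinned sums, 0.012 without the highest doublet scores and 0.012 without silhouette scores under the median. The cause was not tested. The calls of Ttr (adjusted p 0.0674), Lss (0.0654) and Aif1 (0.155) were lost under DESeq2, those of Bcan (log2 fold change 0.89) and Slc6a9 (-0.99) with thinned sums, and those of Tgfb2 (0.19), Hmgcs1 (0.98) and Wnt5a (-0.99) without silhouette scores under the median, where Ifit3 (1.13), Apoe (1.2), Nkx2-1 (1.04) and Dnah7b (-1.07) gained one, as Tekt1 (-1.05) did with thinned sums. Leaving out mouse 30 ended the calls of Idh3a (-0.95), Lss (-0.91) and Sparcl1 (-0.97), leaving out mouse 34 those of Bcan (0.94) and Aif1 (0.87), leaving out mouse 4 that of Aif1 (0.85) and leaving out mouse 3 those of Ttr and Wnt5a (-0.90), with the same signs. Of 156 genes named, 135 had the same call under every setting in which they were tested.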
